A study of Saccharomyces cerevisiae with 15 samples.

Results

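Messenger RNA of young budding yeast cells lacking TIS11, the gene also called CTH2, was set against that of young wild-type cells. The data are 4 of the 15 libraries of the series, chosen by their labels alone: 2 RNA-seq libraries of young cth2Δ cells and 2 of young wild-type cells, with every gene of the count files included. Both strains carry the Mother Enrichment Program of strain UCC8773, and the deletion strain is a derivative of it. In that program the daughter-specific SCW11 promoter drives an estradiol-switched Cre recombinase, which removes genes that daughter cells need to divide. Cells of both strains were grown in YPD with nourseothricin and hygromycin B, labelled with biotin, cultured for 2 h at 30 °C with 1 μM estradiol and pulled down on magnetic beads, so the young cells had already been exposed to estradiol. The same lysates were also used for ribosome footprints, which are given here beside the mRNA where they bear on a gene. The labels do not say whether the 2 libraries of a strain came from separate cultures, so p-values measure only the spread between these libraries, and they do not say how many clones of the deletion strain were used.

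Cth2 is a zinc-finger RNA-binding protein of the tristetraprolin family. When iron is scarce, the transcription factors Aft1 and Aft2 switch on the iron regulon, a set of genes for iron uptake, and CTH2 is one of its members. Cth2 then binds AU-rich elements downstream of the coding sequence of mRNAs for iron-using proteins, such as enzymes of the tricarboxylic acid cycle, the respiratory chain and heme synthesis, and speeds their decay. Its paralog Cth1 acts on an overlapping group of mRNAs. Rich glucose medium holds ample iron, and CTH2 is weakly expressed there.

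The cth2Δ libraries held 3800055 and 3439163 counts, and the wild-type libraries held 3512510 and 4971687 counts. At these depths 3 counts correspond to 0.663 to 0.953 CPM, counts scaled to a common library size, which covers counting error only. Of 7127 gene identifiers, 5991 passed the count filter and were tested. The filter was applied over all 7 RNA-seq libraries of the series, so some genes tested had few or 0 counts in these 4. No gene passed an adjusted p under 0.05 in edgeR's quasi-likelihood test (0 of 5991, 0%), and DESeq2 also called 0. At an unadjusted p under 0.05 edgeR listed 99 genes (1.65%) and DESeq2 listed 54. In edgeR 23 of the 99 were higher (0.384% of the genes tested) and 76 lower (1.27%) in cth2Δ. Both cth2Δ libraries lay above both wild-type libraries for 533 genes (8.90%) and below both for 625 genes (10.4%). The fitted log2 fold change was above 0 for 51.8% of the genes. The values below are therefore descriptions of these 4 libraries, read against those shares.

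The 2 libraries of each strain differed strongly from each other, and in opposite directions in the 2 strains. In bulk samples like these, fewer cells in a state and less RNA per cell cannot be told apart. Ribosome biogenesis genes, whose products assemble new ribosomes in fast-growing cells, had a summed level of 15239 and 6796 CPM in cth2Δ replicates 1 and 2, against 7433 and 13686 CPM in wild-type replicates 1 and 2. Reserve carbohydrate genes, which make and break down glycogen and trehalose and are high as glucose runs low, showed the opposite order, with 5767 and 14000.3 CPM in cth2Δ and 12774 and 5544 CPM in wild type. Replicate 1 of cth2Δ thus stood with replicate 2 of wild type, and replicate 2 of cth2Δ with replicate 1 of wild type. The same split was seen in single genes of glucose use chosen after their values were seen. HXT1, the low-affinity transporter induced by high glucose, had 198 and 46.4 CPM in cth2Δ and 47.7 and 170 CPM in wild type. HXT6, a high-affinity transporter repressed by glucose, had 9 and 311 counts in cth2Δ and 320 and 14 counts in wild type, although its reads cannot be told from those of its near-identical neighbour HXT7. TDH1, the glyceraldehyde-3-phosphate dehydrogenase isozyme made in slow-growing cells, had 3783 and 9952 CPM in cth2Δ and 9503 and 2887 CPM in wild type.

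Gene by gene, 607 genes (10.1%) lay at least 2-fold apart between the 2 cth2Δ libraries and 595 (9.93%) between the 2 wild-type libraries. Across strains the number was 120 (2.00%) for cth2Δ replicate 2 against wild-type replicate 1 and 247 (4.12%) for cth2Δ replicate 1 against wild-type replicate 2. It was 521 (8.70%) for the 2 libraries numbered 1 and 764 (12.8%) for the 2 libraries numbered 2. The biological coefficient of variation was 27.3% in young cth2Δ and 26.6% in young wild type, against 8.44% in the 2 old wild-type libraries that share the fit. Each comparison below is therefore given library by library.

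**Figure D1:**
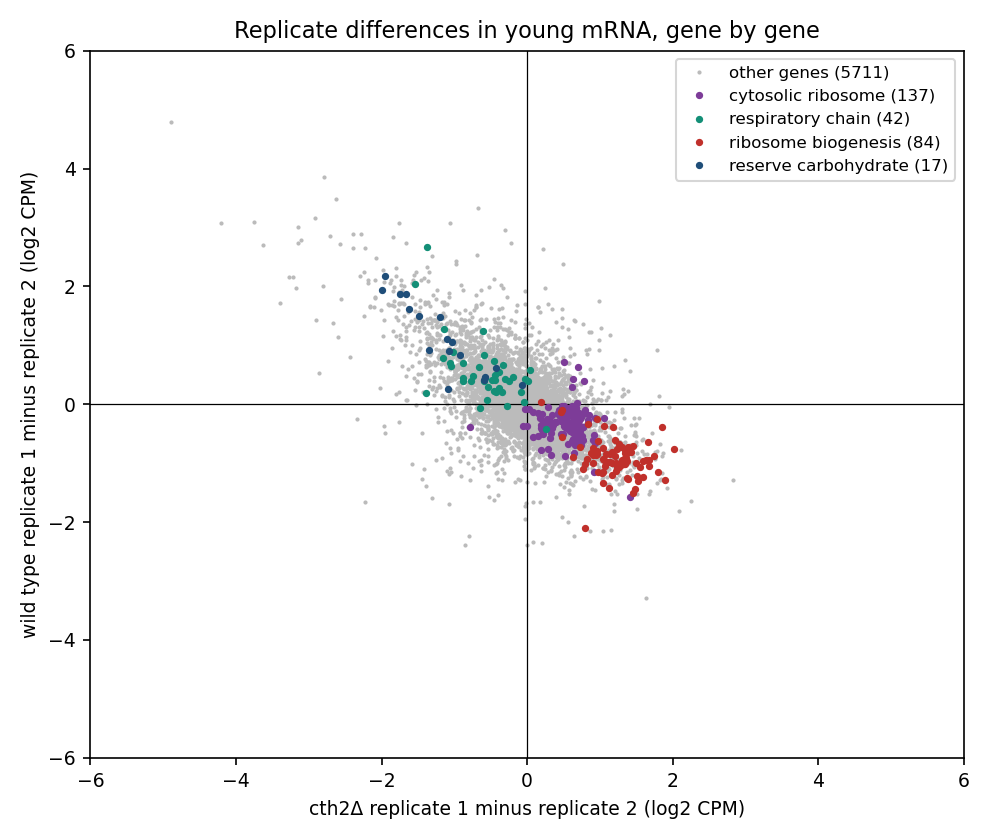
Each point is 1 of the 5991 genes tested; the horizontal axis is cth2Δ replicate 1 minus replicate 2 and the vertical axis wild type replicate 1 minus replicate 2, both in log2 CPM. Ribosome biogenesis genes (84, median 1.23 in cth2Δ and −0.93 in wild type) and reserve carbohydrate genes (17, median −1.09 in cth2Δ and 1.06 in wild type) lie at opposite ends of a falling diagonal.

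The deleted gene was read first, since it checks the strain labels. TIS11 (YLR136C, chrXII:415801-416658, minus strand, R64) had 2 and 1 counts in the cth2Δ libraries, at or under the floor of 3 counts, against 32 and 29 counts in the wild-type libraries. Its level was 0.619 and 0.318 CPM in cth2Δ and 10.1 and 6.41 CPM in wild type, so it was low in young wild-type cells too. With the cth2Δ libraries set at 3 counts each, it was at least 8.75-fold lower in cth2Δ. The fitted log2 fold change was −4.01, with an SE of 0.51 and an adjusted p of 0.715 in edgeR, the smallest unadjusted p of all genes tested, and it did not pass the threshold. The 4 libraries all matched their strain labels.

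Of the 5 annotated genes within 5000 bp of TIS11, only PDC5, a minor pyruvate decarboxylase, had no overlap between the groups. It lies 3387 bp away and had 27.6 and 27.0 CPM in cth2Δ against 21.0 and 20.3 CPM in wild type, a log2 fold change of 0.40 (SE 0.19). Its footprints were also higher, at 14.1 and 15.4 CPM in cth2Δ and 7.34 and 10.3 CPM in wild type. The other 4, SLX4, RKM5, NHA1 and SLS1, had log2 fold changes from −0.17 to 0.20, with overlapping groups.

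Cth2 recognises the octamer TATTTATT (written in DNA letters). The motif was searched on the coding strand of the R64 genome in the 300 nt after each stop codon, whatever the end of the transcript, with overlapping matches counted separately. It was found for 464 of 5989 protein-coding genes (7.75%), and 2 or more times for 73 genes (1.22%). Of 22 mRNAs listed as Cth2 targets, 21 carried it, and MRS4, a mitochondrial iron carrier, did not. TIS11 itself has 1 match. The stretches below, with the motif in capitals, show how alike these elements are in mRNAs of different roles; the first base of the motif lies 47 (TIS11), 33 (ACO1), 122 (SDH4), 163 (SDH2), 19 (CCP1), 86 (LEU1) and 54 nt (CTH1) after the stop codon.
TIS11 (chrXII:415736-415765, minus strand): ctaaactcaatTATTTATTatttttttctc
ACO1 (chrXII:735161-735190, minus strand): ttaaaggttatTATTTATTttgtcttctgt
SDH4 (chrIV:818606-818635, plus strand): atatttactagTATTTATTtattattattt
SDH2 (chrXII:52950-52979, minus strand): tctatgactatTATTTATTtatcattggca
CCP1 (chrXI:566076-566105, minus strand): aggaaagatatTATTTATTggttatatttc
LEU1 (chrVII:476209-476238, minus strand): accaaactactTATTTATTattaatacgta
CTH1 (chrIV:764106-764135, minus strand): ctgcctctcctTATTTATTtattcattatc

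Differences between the strains in these target mRNAs were small and changed with the libraries paired, and none passed the threshold. All 22 were tested, and 17 had a log2 fold change above 0 (against 51.8% of all genes), with a median of 0.17 and a range from −0.14 to 0.32. In 1 of the 22, ACO1, both cth2Δ libraries lay above both wild-type libraries (against 8.90% of all genes), and in 0 of the 22 below both (10.4%). The median depended on which libraries were paired: it was −0.25 for cth2Δ replicate 1 minus wild-type replicate 1 and 0.14 for cth2Δ replicate 1 minus wild-type replicate 2. With cth2Δ replicate 2 it was 0.23 against wild-type replicate 1 and 0.42 against wild-type replicate 2. Without cth2Δ replicate 2 the fitted median was −0.05, with 9 of 22 above 0, and without wild-type replicate 2 it was 0.02, with 13 of 22 above 0. Of the 22 targets, 18 had more footprints in cth2Δ (against 55.1% of all genes), with a median log2 fold change of 0.13. Over all genes 1.73% had an unadjusted p under 0.05 in footprints and 0 passed adjustment.

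ACO1, the iron-sulfur enzyme aconitase of the tricarboxylic acid cycle, carries 5 motifs. Its mRNA level was 944 and 935 CPM in cth2Δ libraries and 756 and 785 CPM in wild-type libraries, or 939 ± 6.48 CPM and 770 ± 20.4 CPM (SD, n = 2 each). edgeR put the difference at 0.29 on the log2 scale (SE 0.20, adjusted p 1.0), and the groups did not overlap. The genes of succinate dehydrogenase, the iron-sulfur and heme enzyme that joins this cycle to the respiratory chain, did overlap. SDH1, its flavoprotein subunit, with 9 motifs, had 116 and 215 CPM in cth2Δ and 174 and 106 CPM in wild type. SDH2, its iron-sulfur subunit, had 74.9 and 155 CPM in cth2Δ and 120 and 75.8 CPM in wild type. SDH4, a membrane anchor with 4 motifs, had 82.3 and 167 CPM in cth2Δ and 148 and 79.8 CPM in wild type. SDH3, with 1 motif, had 110 and 151 CPM in cth2Δ and 142 and 122 CPM in wild type. In each of these SDH genes cth2Δ replicate 2 was the highest library, and cth2Δ replicate 1 and wild-type replicate 2 were the low ones. That is the same split of libraries as in the reserve carbohydrate genes.

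Among respiratory chain and electron transfer targets, RIP1, the Rieske iron-sulfur protein, had the highest log2 fold change of the 22, at 0.32 (SE 0.26), with 59.7 and 89.3 CPM in cth2Δ and 68.8 and 50.6 CPM in wild type. CCP1, the heme enzyme cytochrome c peroxidase, had 264 and 376 CPM in cth2Δ and 318 and 214 CPM in wild type. CYC1, cytochrome c, had 68.4 and 57.2 CPM in cth2Δ and 58.4 and 78.0 CPM in wild type, with a log2 fold change of −0.12 (SE 0.25). The groups overlapped in all of these. RLI1, an iron-sulfur protein needed for ribosome recycling and assembly, was the lowest of the list, at −0.14 (SE 0.43), with 156 and 104 CPM in cth2Δ and 81.4 and 205 CPM in wild type. As in the ribosome biogenesis genes, cth2Δ replicate 1 and wild-type replicate 2 were the higher libraries, though in another order. CTH1, the paralog of the deleted gene, had 44.9 and 68.0 CPM in cth2Δ and 55.6 and 57.0 CPM in wild type, so its wild-type values lay between the cth2Δ values.

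Targets in amino acid synthesis behaved otherwise between libraries. LEU1, the iron-sulfur isopropylmalate isomerase of leucine synthesis, had 208 and 149 CPM in cth2Δ and 117 and 188 CPM in wild type. GLT1, the iron-sulfur glutamate synthase, carries 13 motifs, the most of the list, many of them overlapping in 1 repeat. Its mRNA level was 337 and 259 CPM in cth2Δ and 243 and 286 CPM in wild type, with overlapping groups. Its footprint level, however, was 828 and 809 CPM in cth2Δ and 560 and 579 CPM in wild type, with no overlap and a log2 fold change of 0.52 (SE 0.13, unadjusted p 0.0045 and adjusted p 1.0 in edgeR). WTM1, a regulator of ribonucleotide reductase localisation, had 693 and 1121 CPM in cth2Δ and 938 and 628 CPM in wild type.

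**Figure D2:**
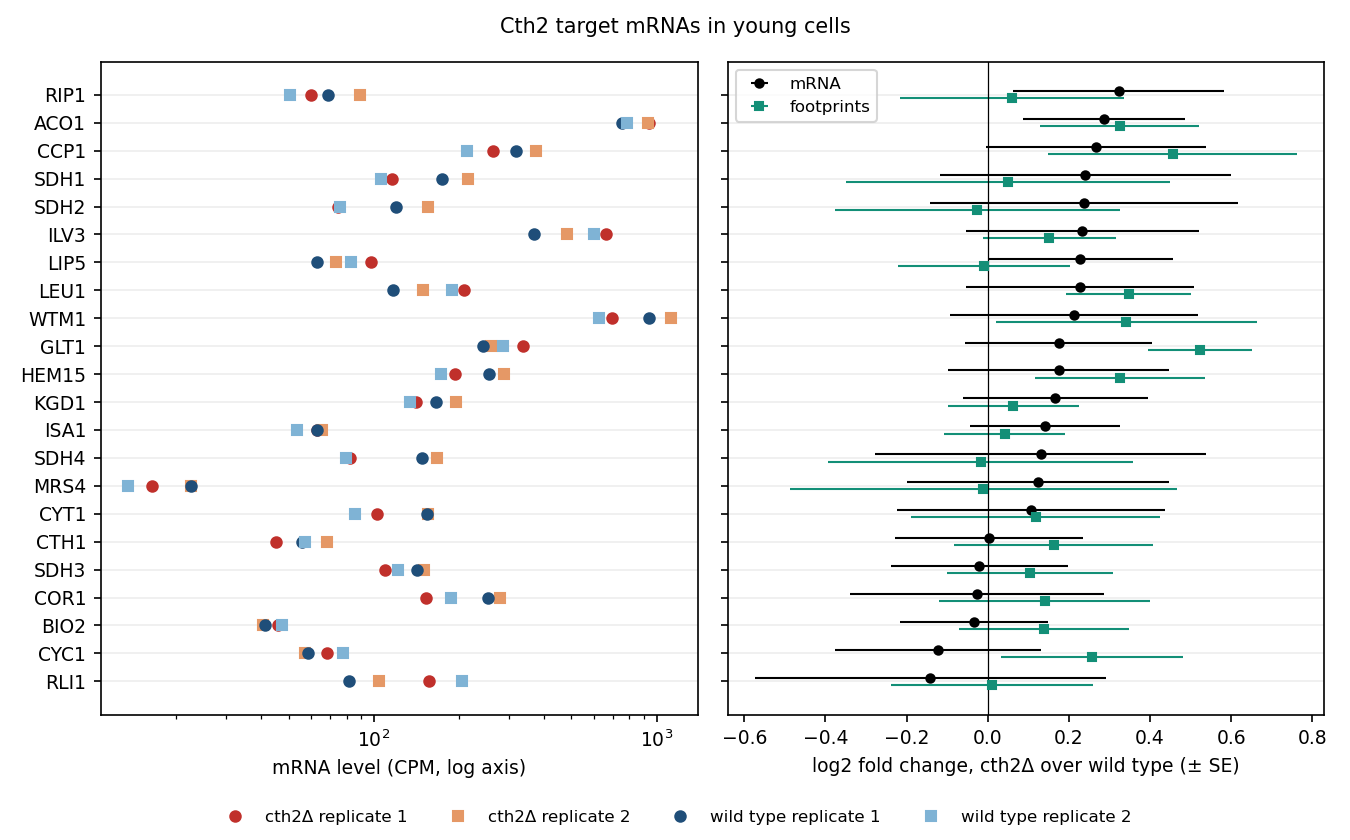
The left panel gives the mRNA level of each of the 22 Cth2 target genes in each library (CPM, log axis) and the right panel the fitted log2 fold change, cth2Δ over wild type, with its SE, for mRNA and for footprints. ACO1 is the gene whose cth2Δ points both lie right of the wild-type points, and the mRNA folds run from −0.14 for RLI1 to 0.32 for RIP1.

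The 450 tested genes with 1 or more motifs, the listed targets included, had a median log2 fold change of 0.04. Of these, 36 (8.00%, against 8.90% of all genes) lay above and 37 (8.22%, against 10.4%) below wild type without overlap. The 72 tested genes with 2 or more motifs had a median of 0.10, with 51 above 0. Of the 72, 5 (6.94%) lay above and 3 (4.17%) below without overlap. Leaving out the listed targets among them left 60 genes with a median of 0.07, of which 41 were above 0 (68.3%, against 51.8% of all genes). Of the 60, 4 (6.67%) lay above and 3 (5.00%) below without overlap. Genes with no motif had a median of 0.01 over 5214 genes. Among the genes with 2 or more motifs, NFU1, a mitochondrial iron-sulfur carrier, had 108 and 110 CPM in cth2Δ and 86.1 and 86.2 CPM in wild type, a log2 fold change of 0.34 (SE 0.17). CIR2, a mitochondrial electron-transfer flavoprotein oxidoreductase homolog, had 141 and 123 CPM in cth2Δ and 98.9 and 110 CPM in wild type. In both genes the groups did not overlap. ACO1, CTA1 and FLO9 of this list were also separated upward, and MEP3, PRR2 and RMD6 downward. MEP3 had 55.7 and 50.8 CPM in cth2Δ and 73.5 and 65.2 CPM in wild type (log2 fold change −0.38, SE 0.19). Footprints of NFU1 were nearly equal, with a log2 fold change of −0.03 (SE 0.17).

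Among the genes that Aft1 and Aft2 switch on when iron is low, the iron regulon, most uptake genes had a fold change above 0, and some were separated between the groups. Aft1 binds the core TGCACCC, which was searched on both strands in the 500 nt before each start codon and found for 139 of 5989 protein-coding genes (2.32%). It was found for 21 members of the iron regulon list. FIT3, a cell wall mannoprotein that retains iron-bound siderophores, and FRE5, a putative ferric reductase, are divergent neighbours on chromosome XV and share 1 intergenic region with 2 matches. They had the highest log2 fold changes of the list apart from the barely counted LSO1. The 300 bases before the FIT3 start codon (chrXV:1061056-1061355, minus strand, R64) are shown with the core in capitals, once as TGCACCC and once as its reverse complement GGGTGCA.
FIT3: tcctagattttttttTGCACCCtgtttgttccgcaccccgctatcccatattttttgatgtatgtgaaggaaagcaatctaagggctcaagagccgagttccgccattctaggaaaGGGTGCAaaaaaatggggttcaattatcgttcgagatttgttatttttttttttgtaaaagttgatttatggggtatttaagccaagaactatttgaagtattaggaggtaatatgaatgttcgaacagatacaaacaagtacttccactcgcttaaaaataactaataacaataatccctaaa
Shorter stretches show the core before FET3, FRE4 and ARN1, which were separated between the groups, and before FTR1, which was not.
FET3 (chrXIII:388560-388589, plus strand): atcttcaaaagTGCACCCatttgcaggtgc
FRE4 (chrXIV:739503-739532, plus strand): gtctaaaaattTGCACCCtatttaacatag
ARN1 (chrVIII:21213-21242, minus strand): atttatcaaaaTGCACCCataaaagcaggt
FTR1 (chrV:461897-461926, minus strand): gcgtagatgaaTGCACCCgatttctaagtt

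Of 34 iron regulon genes listed, 32 were found and tested, and 27 had a log2 fold change above 0 (against 51.8% of all genes), with a median of 0.24 and a range from −0.29 to 1.80. Both cth2Δ libraries lay above both wild-type libraries in 10 of the 32 (31.2%, against 8.90% of all genes) and below both in 1 (ATX1, against 10.4%). Unlike the Cth2 targets, the list had a median above 0 in all 4 library pairs. The median was 0.22 for cth2Δ replicate 1 against each wild-type library, 0.22 for cth2Δ replicate 2 against wild-type replicate 1 and 0.08 for cth2Δ replicate 2 against wild-type replicate 2. It stayed between 0.18 and 0.25 when any 1 of the 4 libraries was left out. No member passed the adjusted threshold.

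The list was split by role after its values were seen. The siderophore uptake genes were above 0 in 7 of 7 cases (median 0.40), with 3 separated upward (42.9%, against 8.90% of all genes). Their median was 0.93 for cth2Δ replicate 1 against wild-type replicate 1 and 0.46 against wild-type replicate 2. For cth2Δ replicate 2 it was 0.37 against wild-type replicate 1. Against wild-type replicate 2 it was −0.09, with 3 of 7 above 0. FIT3 had 392 and 186 CPM in cth2Δ and 144 and 176 CPM in wild type, or 289 ± 145 CPM and 160 ± 22.3 CPM (SD, n = 2 each), or 0.85 higher in cth2Δ on the log2 scale (SE 0.36, adjusted p 1.0, edgeR). Its groups did not overlap, but cth2Δ replicate 1 alone stood far above the other 3 libraries, and without it the fold was 0.22. FIT2, its neighbour with 4 matches to the core, had 265 and 149 CPM in cth2Δ and 147 and 192 CPM in wild type, with overlap. ARN1, a transporter of ferrichrome-type siderophores, had 30.6 and 29.2 CPM in cth2Δ and 16.6 and 26.7 CPM in wild type. ARN2, a transporter of triacetylfusarinine C, had 125 and 78.8 CPM in cth2Δ and 59.7 and 84.0 CPM in wild type. ENB1, the enterobactin transporter, had 135 and 145 CPM in cth2Δ and 119 and 116 CPM in wild type. ARN1 and ENB1 were separated and ARN2 was not. The fold of ARN1 was 0.16 without wild-type replicate 1 and 0.85 without wild-type replicate 2. In footprints FIT1, another mannoprotein gene of this kind, had 27.2 and 7.03 CPM in cth2Δ and 1.41 and 3.62 CPM in wild type (log2 fold change 2.68, SE 0.76, unadjusted p 0.0098 and adjusted p 1.0 in edgeR), while its mRNA overlapped between groups at 13.6 and 3.49 CPM in cth2Δ and 6.91 and 6.19 CPM in wild type.

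The reductive uptake pathway, in which surface reductases and a copper oxidase feed iron to a permease, had 8 of 10 genes above 0. Of the 10, 5 were separated upward (50.0%, against 8.90% of all genes) and 1 downward (10.0%, against 10.4%). FET3, the multicopper oxidase, had 240 and 272 CPM in cth2Δ and 208 and 157 CPM in wild type, or 0.49 higher in cth2Δ on the log2 scale (SE 0.22, adjusted p 1.0, edgeR). FTR1, its partner permease, had 165 and 111 CPM in cth2Δ and 91.4 and 142 CPM in wild type, with overlap. The reductase FRE4 had 13.6 and 17.2 CPM in cth2Δ and 11.6 and 7.96 CPM in wild type (log2 fold change 0.67, SE 0.31). FRE5 had 11.8 and 20.6 CPM in cth2Δ and 10.4 and 8.62 CPM in wild type (0.78, SE 0.34), and the fold was 0.32 without cth2Δ replicate 2. The reductase genes FRE2 and FRE3 were also separated, by log2 fold changes of 0.21 and 0.25. The main reductase FRE1 had 135 and 28.0 CPM in cth2Δ and 27.6 and 87.5 CPM in wild type. In FRE1, as in FTR1, FIT2 and ARN2, cth2Δ replicate 1 and wild-type replicate 2 were the higher libraries of their strains. That is also the order of the ribosome biogenesis genes, while FET3, FRE4 and FRE5 had the reverse order. ATX1, the copper chaperone that supplies FET3, was the separated gene in the other direction, with 91.9 and 85.4 CPM in cth2Δ and 110 and 107 CPM in wild type (log2 fold change −0.29, SE 0.17).

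The members with the Aft core were 21 tested genes, of which 18 were above 0, with a median of 0.25. Of the 21, 8 were separated upward (38.1%, against 8.90% of all genes) and 1 downward (4.76%, against 10.4%). The 11 members without the core had 9 above 0, 2 separated upward (18.2%) and a median of 0.16. In footprints 19 of 20 members with the core were above 0 (against 55.1% of all genes), with a median of 0.49. Of the 11 without the core, 5 were above 0, with a median of −0.0030. Some of the 19 rested on few footprints. FRE3 had 2 and 2 counts in cth2Δ and 0 and 1 in wild type. FRE5 had 5 and 7 counts in cth2Δ and 1 and 3 in wild type, and LSO1 had 12 and 7 against 0 and 0. The difference between the 2 kinds of member was not tested. The 112 tested genes that carry the core but are not on the list had a median of 0.06, with 66 above 0. Among these, 8 were separated upward (7.14%, against 8.90% of all genes) and 17 downward (15.2%, against 10.4%). Other single values bear on the regulon. HMX1, the heme oxygenase, had overlapping mRNA (22.0 and 18.4 CPM in cth2Δ, 18.8 and 17.5 CPM in wild type) and separated footprints (10.6 and 7.98 CPM in cth2Δ, 6.21 and 5.57 CPM in wild type). AFT2 mRNA, which encodes one of the activators, was lower, with 20.1 and 25.7 CPM in cth2Δ and 27.3 and 43.1 CPM in wild type (log2 fold change −0.63, SE 0.27), and its footprints were level at −0.01. AFT1 mRNA had 12.4 and 23.5 CPM in cth2Δ and 16.3 and 21.4 CPM in wild type.

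**Figure D3:**
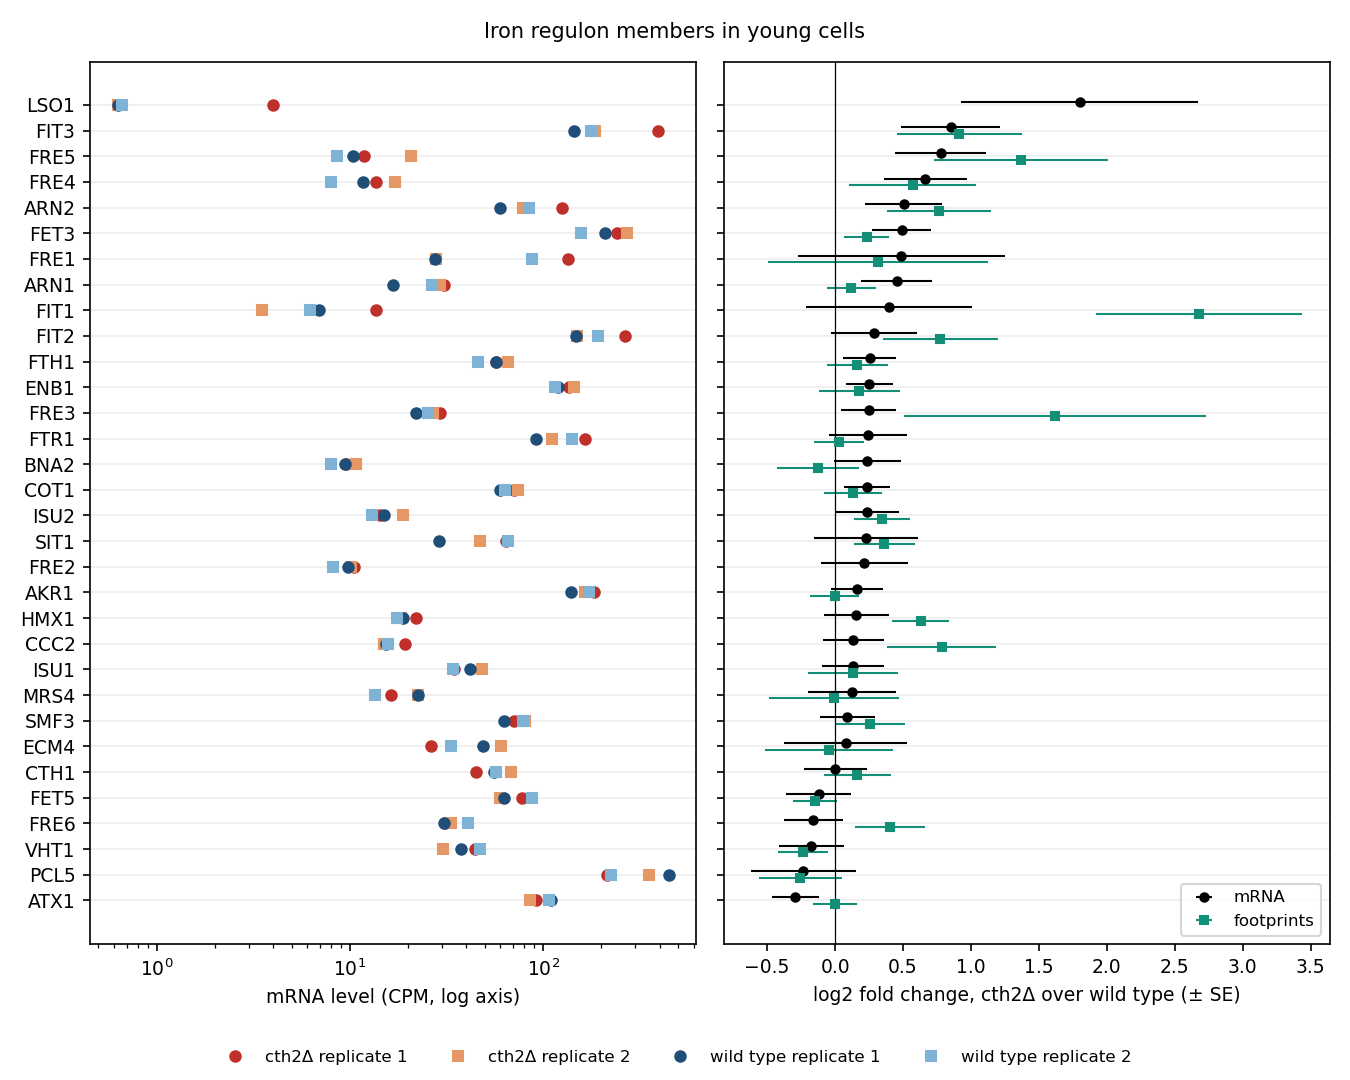
The left panel gives the mRNA level of the 32 tested iron regulon genes in each library (CPM, log axis) and the right panel the fitted log2 fold change, cth2Δ over wild type, with its SE, for mRNA and footprints; no footprint point is drawn for LSO1, which had none in wild type, or FRE2, which was not tested there. Of the 32 mRNA folds, 27 lie right of 0, and LSO1, at the top, rests on 13 and 2 counts in cth2Δ and 2 and 3 in wild type.

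Iron-sulfur cluster assembly genes had 16 of 27 above 0 and a median of 0.07. Of the 27, 5 were separated upward (18.5%, against 8.90% of all genes) and 4 downward (14.8%, against 10.4%). NFU1, CIA1, of the cytosolic assembly machinery (93.5 and 68.6 CPM in cth2Δ, 61.9 and 60.3 CPM in wild type), and YFH1, yeast frataxin (78.0 and 86.4 CPM in cth2Δ, 71.0 and 64.8 CPM in wild type), were among the higher ones. JAC1, a cochaperone of cluster transfer, was among the lower, with 16.1 and 19.7 CPM in cth2Δ and 27.0 and 20.1 CPM in wild type. YAH1, mitochondrial ferredoxin, was too, with 24.8 and 19.4 CPM in cth2Δ and 26.1 and 30.3 CPM in wild type. Heme synthesis and its regulators had 9 of 12 above 0 (75.0%, median 0.13). Of these 12, 0 were separated upward (against 8.90% of all genes) and 2 downward (16.7%, against 10.4%).

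Mitochondrial function is named in the title of the study. Of 42 nuclear respiratory chain genes, 24 were above 0, with a median of 0.03. Of these genes 1 was separated in each direction (2.38%, against 8.90% upward and 10.4% downward over all genes). Their median was −0.47 for the pair numbered 1 and 0.45 for the pair numbered 2, and 0.05 and 0.02 in the like pairs. NDE1, the external NADH dehydrogenase, was the one separated upward, with 453 and 538 CPM in cth2Δ and 445 and 340 CPM in wild type. ATP15, the epsilon subunit of ATP synthase, was the one separated downward, with 82.0 and 121 CPM in cth2Δ and 144 and 136 CPM in wild type. The tricarboxylic acid cycle list, part of which is also on the Cth2 target list, had 13 of 17 above 0 and a median of 0.16. Of the 17, 2 were separated upward (11.8%, against 8.90% of all genes) and 0 downward. HAP4, the regulatory subunit of the activator of respiration genes, had 103 and 198 CPM in cth2Δ and 103 and 78.7 CPM in wild type (log2 fold change 0.73, SE 0.34), where the lower cth2Δ library and the higher wild-type library were equal to 3 digits, and the fold was 0.19 without cth2Δ replicate 2. Mitochondrial ribosomal protein genes had 28 of 67 above 0, with 2 separated upward (2.99%, against 8.90% of all genes) and 10 downward (14.9%, against 10.4%). MRPS8 was the lowest of them, with 32.2 and 34.6 CPM in cth2Δ and 44.6 and 46.6 CPM in wild type (log2 fold change −0.45, SE 0.18).

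Glycolysis and fermentation genes were above 0 in 20 of 21 cases (against 51.8% of all genes), with a median of 0.18 and a range from −0.16 to 0.57. Of the 21, 8 were separated upward (38.1%, against 8.90% of all genes) and 0 downward. The 8 were CDC19, ENO2, GPM1, HXK2, PDC5, PDC6, PFK1 and PFK2. PDC6, at the top of that range, rested on 11 and 9 counts in cth2Δ and 8 and 8 in wild type. The groups of ENO2 lay only 0.012 apart in log2 CPM. CDC19, the main pyruvate kinase, had 3498 and 3606 CPM in cth2Δ and 2468 and 3082 CPM in wild type, or 0.36 higher in cth2Δ on the log2 scale (SE 0.22, adjusted p 1.0, edgeR). PFK2, a phosphofructokinase subunit, had 1107 and 1157 CPM in cth2Δ and 960 and 964 CPM in wild type. PYK2, the glucose-repressed pyruvate kinase, was the one below 0, with 63.8 and 116 CPM in cth2Δ and 135 and 65.6 CPM in wild type. The list's median was above 0 in all 4 pairs, from 0.06, in the pair numbered 1 with 11 of 21 genes above 0, to 0.30. It was 0.085 without cth2Δ replicate 2, with 13 of 21 above 0, and 0.086 without wild-type replicate 2, with 12 of 21 above 0. In footprints 18 of 21 were above 0, with a median of 0.10.

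Hexose transport genes had no common direction (9 of 18 above 0), but HXT3, a low-affinity transporter, was separated in both readouts. Its mRNA level was 675 and 446 CPM in cth2Δ and 341 and 418 CPM in wild type (log2 fold change 0.56, SE 0.26, or 0.23 without cth2Δ replicate 1). Its footprint level was 637 and 621 CPM in cth2Δ and 422 and 432 CPM in wild type (log2 fold change 0.56, SE 0.18, unadjusted p 0.016 and adjusted p 1.0 in edgeR). MTH1, a repressor of HXT genes that is degraded when glucose is sensed, had 20.4 and 70.5 CPM in cth2Δ and 33.9 and 8.62 CPM in wild type. HXT4 had 261 and 840 CPM in cth2Δ and 482 and 148 CPM in wild type. MTH1 and HXT4 overlapped, with cth2Δ replicate 2 highest and wild-type replicate 2 lowest in both.

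**Figure D4:**
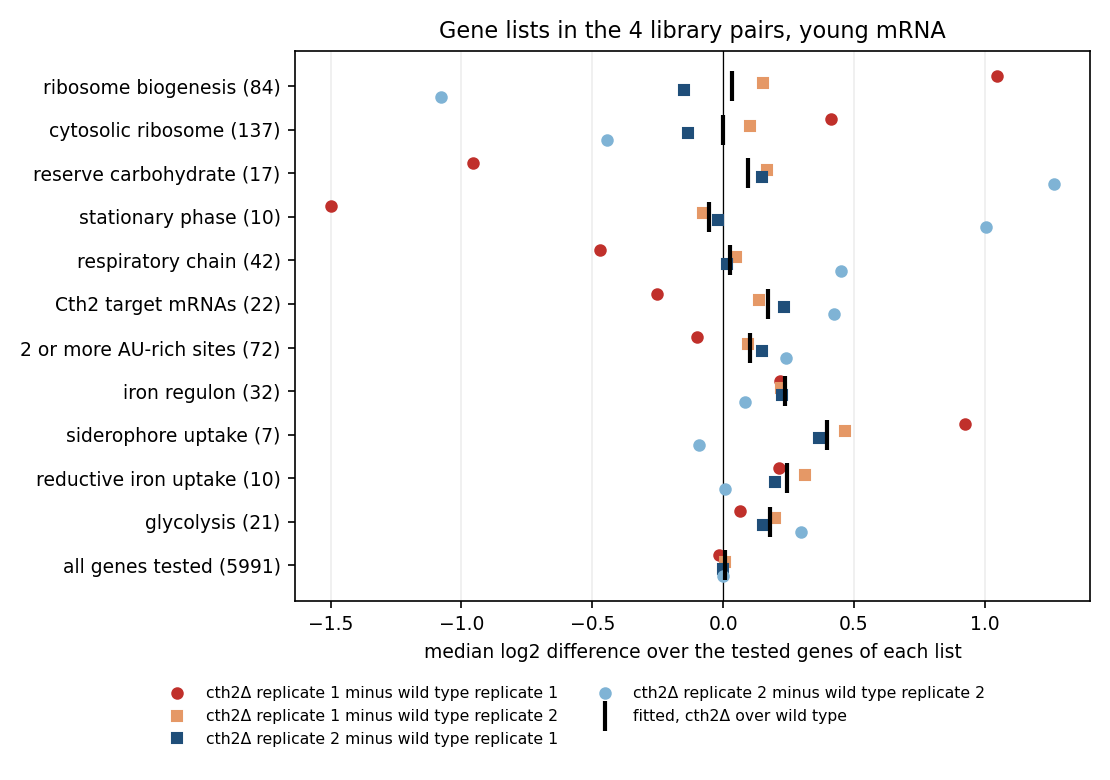
Each point is the median log2 difference, over the tested genes of a list (number in brackets), of 1 cth2Δ library minus 1 wild-type library; circles are pairs with the same replicate number, squares pairs with different numbers, and the bar is the median fitted log2 fold change. Ribosome biogenesis runs from −1.08 to 1.05 between pairs around a fitted median of 0.04, whereas all 4 points of the iron regulon (0.08 to 0.22) and of glycolysis (0.06 to 0.30) lie right of 0.

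Genes with at least 10 CPM on average and the widest gap between the groups were named by rule, 10 in each direction. Among 5252 genes at that level, 452 were separated upward and 492 downward, so these are the ends of a broad range. CIP1 (YPL014W, chrXVI:527547-528692) led the higher ones. It encodes an inhibitor of G1 cyclin-dependent kinase activity induced by environmental stress. Its level was 96.6 and 102 CPM in cth2Δ and 56.9 and 62.5 CPM in wild type, or 99.1 ± 3.57 CPM and 59.7 ± 4.03 CPM (SD, n = 2 each), a log2 fold change of 0.73 (SE 0.17, unadjusted p 0.0040 and adjusted p 1.0 in edgeR). Its footprints were separated too, with 172 and 208 CPM in cth2Δ and 139 and 95.8 CPM in wild type. PHO4, the activator of phosphate-starvation genes, had 27.6 and 21.3 CPM in cth2Δ and 14.4 and 13.7 CPM in wild type, but its footprint fold was −0.03. VAM7, a vacuolar SNARE protein, had 14.9 and 12.7 CPM in cth2Δ and 7.54 and 8.18 CPM in wild type, and its footprint fold was −0.20.

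CBK1, the kinase of the pathway for daughter-specific gene expression and cell separation, had 72.8 and 80.0 CPM in cth2Δ and 54.7 and 54.6 CPM in wild type, with footprints of 82.4 and 85.9 CPM in cth2Δ and 66.9 and 68.8 CPM in wild type. Both readouts were separated. CSS1 had 152 and 142 CPM in cth2Δ and 109 and 68.1 CPM in wild type. TPO3, a polyamine exporter, had 356 and 343 CPM in cth2Δ and 262 and 241 CPM in wild type. The others were OTU1, a deubiquitylating enzyme (log2 fold change 0.44, SE 0.18), DMO1 (1.32, SE 0.38), PDC5 and YHR214C-B. YHR214C-B has 30 near-identical copies in the genome, and its value cannot be assigned to 1 locus.

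PCL1 (YNL289W, chrXIV:87897-88736), a G1 cyclin of the Pho85 kinase, was among the lower ones and had the second smallest p of all genes. Its level was 26.3 and 32.1 CPM in cth2Δ and 56.5 and 61.9 CPM in wild type, or 29.2 ± 4.08 CPM and 59.2 ± 3.78 CPM (SD, n = 2 each), a log2 fold change of −1.02 (SE 0.20, unadjusted p 0.0014 and adjusted p 1.0 in edgeR). In footprints of the same lysates PCL1 had 55.2 and 61.4 CPM in cth2Δ and 68.3 and 55.1 CPM in wild type, which overlap. DAD2, a subunit of the kinetochore Dam1 complex, had 14.2 and 15.9 CPM in cth2Δ and 27.6 and 29.8 CPM in wild type (log2 fold change −0.93, SE 0.24), and its footprint fold was 0.24 (SE 0.30). ATG10, a conjugating enzyme of autophagy, had 8.98 and 8.58 CPM in cth2Δ and 17.6 and 19.0 CPM in wild type and was not tested in footprints. RDT1, a short gene of 87 nt, had 6.50 and 4.45 CPM in cth2Δ and 19.8 and 14.6 CPM in wild type. The difference between mRNA and footprint folds was not tested for any gene.

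The other 6 of the 10 lower genes were YGL102C, YBR191W-A, YPL142C, YPR044C, YNL303W and YMR304C-A, which the R64 annotation used here does not list. Their log2 fold changes ran from −1.63 to −0.74. As a class, identifiers of this kind were more often lower in cth2Δ, and they were short, with a median length of 345 nt. Of the 308 that were tested, 100 had a log2 fold change above 0, and the median was −0.24. Among them 20 were separated upward (6.49%, against 8.90% of all genes) and 84 downward (27.3%, against 10.4%). All identifiers of this kind held 0.433% and 0.618% of the counts in cth2Δ and 0.831% and 0.715% in wild type. Short genes, many of these identifiers among them, showed the same direction. The 1199 shortest genes tested (71 to 549 nt) had a median of −0.08, with 67 separated upward (5.59%) and 218 downward (18.2%). The 1196 longest (2070 to 14733 nt) had a median of 0.04, with 157 separated upward (13.1%) and 62 downward (5.18%). Relative to genes of like length, the medians of the lists became 0.14 for the Cth2 targets, 0.21 for the iron regulon and 0.13 for glycolysis. For the identifiers not in the annotation the median became −0.16, with 123 of 308 above 0. The part of gene length in single-gene differences was not tested.

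**Figure D5:**
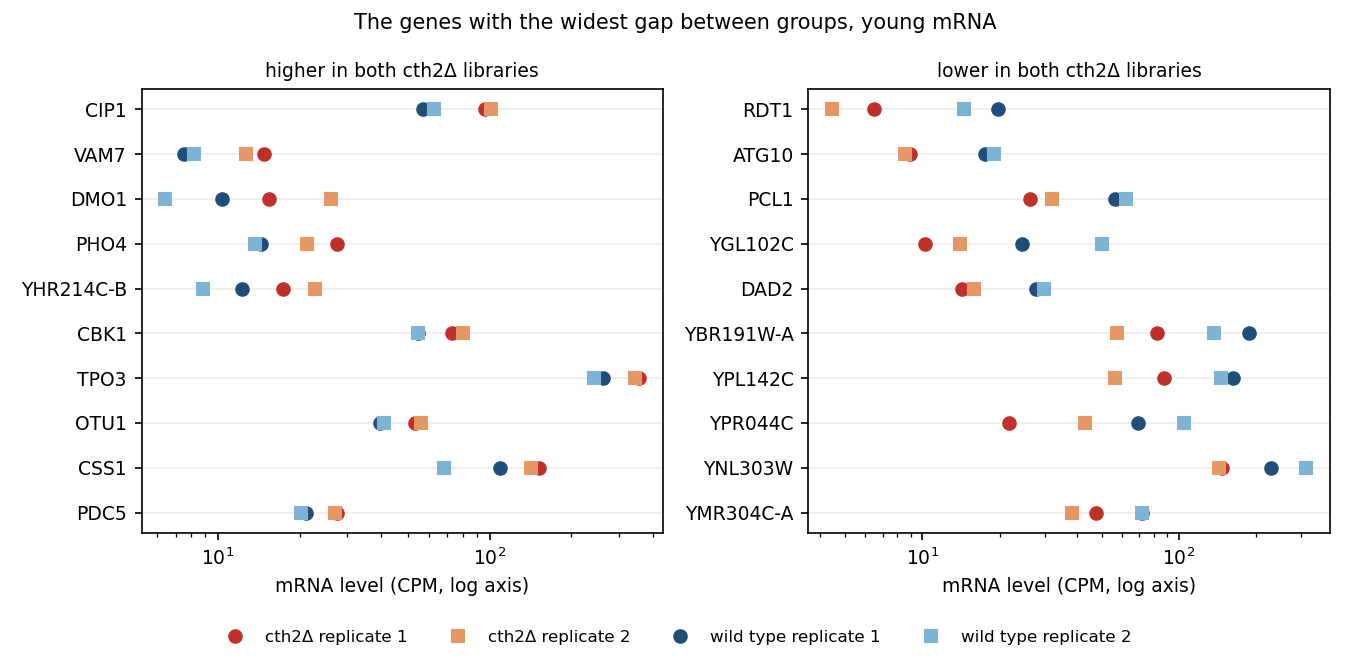
Points are the mRNA level of each gene (CPM, log axis) in the 2 cth2Δ and the 2 wild-type libraries, for the 10 genes per direction with the widest gap between groups among genes of at least 10 CPM, widest at the top. CIP1 sits at 96.6 and 102 CPM in cth2Δ against 56.9 and 62.5 CPM in wild type, and PCL1 at 26.3 and 32.1 CPM against 56.5 and 61.9 CPM.

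Transcripts of the mitochondrial genome came to 177 and 213 counts in cth2Δ and 398 and 367 counts in wild type, or 46.6 and 61.9 CPM of the unscaled totals in cth2Δ and 113 and 73.8 CPM in wild type. Of 12 features tested, 3 had 0 counts in all 4 libraries, and the other 9 were below 0. Of the 12, 5 were separated downward (41.7%, against 10.4% of all genes): COX1, AI4, AI5_ALPHA, AI5_BETA and OLI1. All of these but OLI1 lie in the COX1 locus, with at most 50 counts in any of the 4 libraries. They are therefore not separate observations, and the share counts that locus repeatedly. OLI1, a subunit of ATP synthase, had 8.05 and 16.5 CPM in cth2Δ and 29.5 and 20.1 CPM in wild type, while its footprints overlapped, at 16.3 and 33.6 CPM in cth2Δ and 17.2 and 27.3 CPM in wild type. COX1, cytochrome oxidase subunit I, had 6.81 and 8.89 CPM in cth2Δ and 13.5 and 11.1 CPM in wild type, where intron-encoded genes overlap it and share its reads.

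Marker genes were read for other cell types and for the strain background. All 4 libraries carried a-type genes, with STE2, the alpha-factor receptor, at 518 and 341 CPM in cth2Δ and 357 and 671 CPM in wild type. Summed alpha-type genes were at 27.9 and 27.3 CPM in cth2Δ and 32.0 and 34.5 CPM in wild type, with MF(ALPHA)1 at 0 in 1 library of each strain and at most 0.942 CPM elsewhere. URA3 and LYS2 had 0 counts in every library. Daughter-specific and cell separation genes, which mark cells that have just divided, had 3 of 10 above 0 and summed to 1399 and 1313 CPM in cth2Δ and 1136 and 1657 CPM in wild type. Genes of stationary phase summed to 801 and 2741 CPM in cth2Δ and 3433 and 921 CPM in wild type, the same split of libraries as the reserve carbohydrate genes.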

How the data were processed

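RNA-seq of 2 young cth2Δ and 2 young wild-type libraries was compared. Each deposited file holds raw whole-number counts and a feature length per gene, per the file headers; 99.1% of matched protein-coding features had the R64 coding length. Per the submitters' processing notes, cutadapt 3.4, Bowtie 1.1.2, STAR 2.7.9a and build R64 were used; the counting program and its use of strand are not given in the sources used here, so antisense or overlapping genes cannot be told apart. BLAST marked 433 genes with near-identical copies.

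From these counts, edgeR 4.0.16 (R 4.3.3, limma 3.58.1) fitted all 7 RNA-seq libraries, 1 mean per group (3 residual degrees of freedom), with TMM factors, filterByExpr, a robust quasi-likelihood fit and Benjamini-Hochberg adjustment over 5991 genes; SE is the log2 fold change divided by the root of F. The 8 footprint libraries were fitted likewise (5308 genes). DESeq2 1.42.0 was an alternative. CPM use TMM-scaled library sizes; log2 CPM used a prior count of 2. "Above 0" refers to the fitted log2 fold change, and "separated" to groups that do not overlap. Scripts were tested on simulated data with 200 changed genes and less spread than the young libraries had. That test does not measure how many changes would be missed here.

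Of 7127 identifiers 6047 matched R64 and 1080 did not. Promoters were read from the R64 genome, 500 nt before the start codon, in place of a promoter table. Replicate differences correlated at −0.637 between strains across the 5991 genes, so numbers did not pair the samples. The 2 libraries of a strain were not duplicates (chi-square per degree of freedom 49.2 and 51.6).

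Members and lists were chosen with earlier results of these data known, and lists are described, not tested. Named genes are TIS11, 22 Cth2 targets, the 10 widest gaps each way at a mean of at least 10 CPM, up to 3 extremes per list each way, neighbours of TIS11 and markers; other members of the iron regulon, glycolysis and AU-rich lists, HXT1, HXT6, TDH1, OLI1 and COX1 were chosen after their values were seen.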

Additional observations from a re-analysis of the deposited data

How the results depend on the processing

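In all settings tried but 1, 0 genes passed an adjusted p under 0.05, at unadjusted counts of 99 (RLE factors), 108 (no filter on low counts), 38 (the 4 young libraries alone), 73 (R64-annotated genes only) and 54 (DESeq2). With any 1 young library left out, edgeR passed 0 genes. The labels do not say that replicate numbers pair libraries. A replicate block gave 0 calls (79 unadjusted). Exchanging the numbers of the cth2Δ libraries was an alternative chosen after seeing the data. It pairs the libraries that were most alike in these same counts and so takes out the spread between replicates. Its calls and adjusted p-values are therefore not support for any gene. With the block over all 7 libraries it gave 0 calls, and with the block on the young libraries only 23 calls (7 higher, 16 lower). In the latter TIS11 had a log2 fold change of −4.02 and an adjusted p of 0.00268 in edgeR. Of the other named genes 12 passed there (CIP1, CSS1, DMO1, HXT4 and MTH1 higher, PCL1, RDT1, YBR191W-A, YGL102C, YNL303W, YPL142C and YPR044C lower). Over all settings the TIS11 fold ran from −4.53 to −3.64 and its adjusted p from 0.00268 to 1.0.

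CTH1, at 0.0023 in the reported fit, was −0.0022 with no filter, −0.015 with the replicate block, −0.016 and −0.026 with the crossed blocks and −0.0053 with R64-annotated genes only, and HXT6 was 0.14 with the replicate block and 0.0051 with the crossed block. Leaving out 1 young library at a time turned the sign of 32 named genes, whose log2 fold changes then ran as follows: AFT1 −0.62 to 0.30, CCC2 −0.059 to 0.30, CCP1 −0.011 to 0.58, CTH1 −0.33 to 0.27, CYC1 −0.31 to 0.10, FIT1 −0.89 to 1.06, FIT2 −0.18 to 0.64, FRE1 −1.06 to 1.56, FTR1 −0.071 to 0.60, GLN1 −0.025 to 0.81, GLT1 −0.027 to 0.35, HXT1 −1.24 to 1.36, HXT4 −0.27 to 1.90, HXT6 −4.18 to 4.02, LEU1 −0.074 to 0.61, LSO1 −0.028 to 2.57, MTH1 −0.026 to 2.39, NDI1 −0.030 to 0.85, NHA1 −0.0029 to 0.34, PCL5 −0.64 to 0.34, PYK2 −0.65 to 0.45, RKM5 −0.061 to 0.47, RLI1 −0.66 to 0.68, SDH1 −0.27 to 0.64, SDH2 −0.38 to 0.67, SDH4 −0.47 to 0.64, SIT1 −0.24 to 0.95, SLS1 −0.49 to 0.31, SLX4 −0.22 to 0.13, TDH1 −0.71 to 1.25, VHT1 −0.47 to 0.067, WTM1 −0.18 to 0.53. Of 50 named genes separated between the groups, 21 moved by over 1.5 times when 1 young library was left out, with log2 ranges of AFT2 −0.91 to −0.25, ARN1 0.16 to 0.85, ATP15 −0.77 to −0.21, BNA2 0.11 to 0.36, CDC19 0.21 to 0.53, CIA1 0.17 to 0.61, CSS1 0.43 to 1.11, FET3 0.30 to 0.71, FIT3 0.22 to 1.29, FRE2 0.087 to 0.34, FRE3 0.15 to 0.36, FRE4 0.40 to 0.95, FRE5 0.32 to 1.13, HAP4 0.19 to 1.13, HXT3 0.23 to 0.83, IBA57 −0.49 to −0.12, JAC1 −0.59 to −0.17, NDE1 0.15 to 0.54, OLI1 −1.61 to −0.58, YAH1 −0.54 to −0.19, YGL102C −2.05 to −1.02. The cause of these moves was not tested. Depth limits genes such as TIS11 and LSO1, which lie near the floor of 3 counts.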

Other observations

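SWC7, a subunit of the SWR1 chromatin complex, was named after its values were seen, as a gene with 0 counts in both wild-type libraries and more than 3 in each cth2Δ library. It had 6 and 5 mRNA counts in cth2Δ and 0 and 0 in wild type, while its footprints had 9 and 12 counts in cth2Δ and 10 and 12 counts in wild type.

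Genes of mRNA decay and deadenylation had 9 of 25 above 0 (against 51.8% of all genes), with a median log2 fold change of −0.06. Of the 25, 1 was separated upward (against 8.90% of all genes) and 5 downward (against 10.4%). Relative to genes of like length, the median became −0.013, with 11 of 25 above 0. A shift of this list was not tested.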
